A study of Homo sapiens with 6 samples.

Results

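The genes described here encode the proteins that trim, splice, ligate, complete and export transfer RNA (tRNA), together with the Microprocessor complex of microRNA synthesis. They were chosen as 30 named genes, and each name matched 1 row of the 20474 annotated genes in the expression tables. The libraries came from HCT116 cells, an established human colorectal cancer line, whose RNA was taken 48 h after transfection. One group of 3 libraries had received a non-targeting siRNA (sicontrol, genotype labelled WT), and the other group of 3 had received an siRNA against POU2F1 (siPOU2F1, labelled POU2F1 knockdown). POU2F1 encodes OCT1, a transcription factor that binds the octamer motif, and the series studies fragments derived from tRNA. PolyA RNA was sequenced, so the tables measure the mRNAs of these factors and not tRNA itself. The sources used here name no siRNA sequence, and they do not say whether libraries of a group came from separate cultures. A p-value therefore measures only how far these libraries spread, possibly for technical reasons. In bulk RNA, fewer cells that express a gene and less of its RNA per cell cannot be told apart.

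A tRNA is transcribed with extra sequence at both ends. RNase P, an RNA enzyme with many protein subunits in the nucleus, removes the 5′ leader, and a protein-only RNase P does so in mitochondria. RNase Z cuts the 3′ trailer, and a nucleotidyltransferase then adds the CCA end that carries the amino acid. Some tRNAs also hold an intron, which the TSEN endonuclease cuts out before a ligase joins the exons, and finished tRNA leaves the nucleus bound to an exportin. Fragments of tRNA can arise from the precursor ends that these enzymes release as well as from the mature molecule.

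Levels are given in FPKM, fragment counts scaled for transcript length and library size, which can be compared between genes. Differences are log2 fold changes of FPKM + 0.5, siPOU2F1 minus sicontrol. A gene is called when its adjusted p is under 0.05 in limma, a linear model fitted over all 11831 annotated genes whose mean reached 1 FPKM (Benjamini-Hochberg adjustment over all of them). POU2F1 was 4.16, 3.60 and 4.26 FPKM in the sicontrol libraries against 1.87, 1.69 and 1.73 FPKM in the siPOU2F1 libraries, in order of replicate. The groups did not overlap, and the log2 fold change was -0.99 ± 0.14 (SE; limma, adjusted p = 0.0333; exact two-sided permutation test p = 0.1, the smallest that 3 against 3 allows). Between 11670 and 11853 annotated genes per library reached 1 FPKM. Read counts are not in the tables, and absolute depth is unknown. The steps between low values put relative depth between 0.778 and 1.00, siPOU2F1 replicate 1 being the shallowest, each from 8 to 16 genes. EPCAM, an epithelial marker, was at 204 to 223 FPKM in all libraries. The 8 epithelial markers together stood at 2705 to 3628 FPKM in sicontrol and 3740 to 5166 FPKM in siPOU2F1, mostly keratins KRT8 and KRT18. Neither keratin was called with all libraries (limma, adjusted p = 0.149 and 0.087), and KRT20, at most 0.231 FPKM, was not tested. Without siPOU2F1 replicate 3, KRT8, KRT18 and VIL1 were called higher (limma, adjusted p = 0.0147, 0.0138 and 0.0356). These were 3 of the 7 tested epithelial markers, where 9.48% of all tested genes were called higher. In that fit 5 of the 7 had log2 fold changes above 0, while CDX2 (-0.16) and EPCAM (-0.01) were below 0. COL1A1, the only tested fibroblast marker, was also called higher there, at 0.60 (limma, adjusted p = 0.0362). What part the epithelial markers had in the results was not tested. PTPRC of leukocytes and DCN and COL3A1 of fibroblasts were listed at 0 in all 6. The summed levels of the 5 immune markers ranged from 0.923 to 1.63 FPKM in sicontrol and from 1.42 to 1.61 FPKM in siPOU2F1. Those of 4 fibroblast markers ranged from 2.16 to 2.67 and from 1.88 to 3.69 FPKM, nearly all of it COL1A1, and those of 4 endothelial markers from 0.666 to 0.954 and from 0.597 to 0.708 FPKM.

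The siPOU2F1 libraries were not alike. Across the tested genes, siPOU2F1 replicate 3 correlated at r = 0.946 and r = 0.948 with the other siPOU2F1 libraries but at r = 0.977 with sicontrol replicate 2, while siPOU2F1 replicates 1 and 2 correlated at r = 0.989 (a description over genes, which are not replicates). POU2F1 was as low in replicate 3 as in the others, and its log2 fold change without that library was -0.98 (limma, adjusted p = 0.00946). Fold changes without siPOU2F1 replicate 3 are therefore given beside those from all libraries.

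No gene of the 30 was called in either direction with all 6 libraries at equal weight. Of the 28 that passed the filter on low values, 1 had an unadjusted p under 0.05, whereas 18.1% of all tested genes did. Of all tested genes 1.24% were called, 0.397% higher and 0.845% lower. The other 2, RPP21 and ELAC1, had means under 1 FPKM and were not tested. The log2 fold change was below 0 for 19 of 28 members, against 51.5% of all tested genes, and the median was -0.11 beside -0.01 for all tested genes. The groups did not overlap for 4 members. RPP30, SSB and XPO5 were lower in every siPOU2F1 library (12.0% of all tested genes were), and DROSHA was higher in every one (11.3%). As shares of the 28, these are 10.7% and 3.57%, and 23.4% of all tested genes separated the groups in either direction. Mean levels over the 6 libraries spanned a wide range, from RPP21 and ELAC1 below 1 FPKM to SSB above 120 FPKM in each library.

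**Figure D1:**
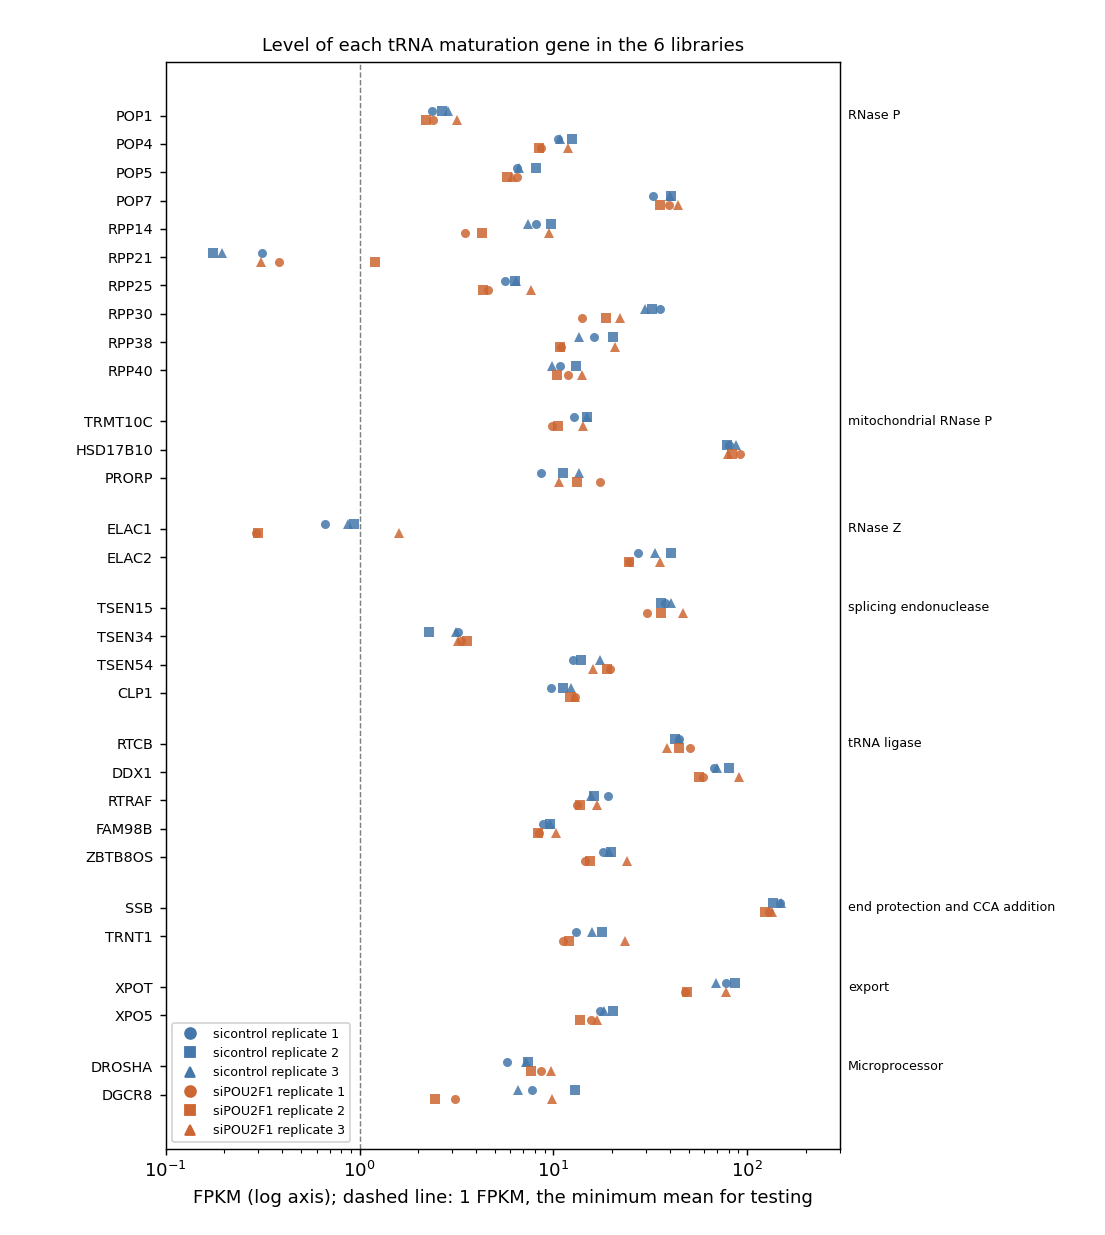
FPKM (log axis) of the 30 genes, grouped by step, in the 3 sicontrol libraries (blue) and the 3 siPOU2F1 libraries (orange); marker shape gives the replicate. Blue and orange points separate for RPP30, SSB, XPO5 and DROSHA, and in many other rows the orange triangle (siPOU2F1 replicate 3) lies apart from the other orange points.

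The members differed between siPOU2F1 libraries as well as between groups. In 21 of the 28 tested members siPOU2F1 replicate 3 was higher than both other siPOU2F1 libraries (75.0%, against 50.6% of all tested genes). In 16 members siPOU2F1 replicates 1 and 2 both lay below every sicontrol library (57.1%, against 35.0%), and in 13 of these replicate 3 did not (46.4%, against 23.0%). Only DROSHA, TSEN34 and TSEN54 had siPOU2F1 replicates 1 and 2 both above every sicontrol library (10.7%, against 27.6%). The median member, relative to its sicontrol mean, stood at -0.27 and -0.28 on the log2 scale in siPOU2F1 replicates 1 and 2 and at 0.14 in replicate 3. Over all tested genes the same medians were -0.04, -0.03 and 0.04. The sicontrol libraries varied too. In 13 members sicontrol replicate 2 was the highest control and siPOU2F1 replicate 3 the highest of its group (46.4%, against 31.7% of all tested genes). In 11 members siPOU2F1 replicate 3 was the highest of all 6 libraries (39.3%, against 23.6%). What sets that library apart was not tested.

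**Figure D2:**
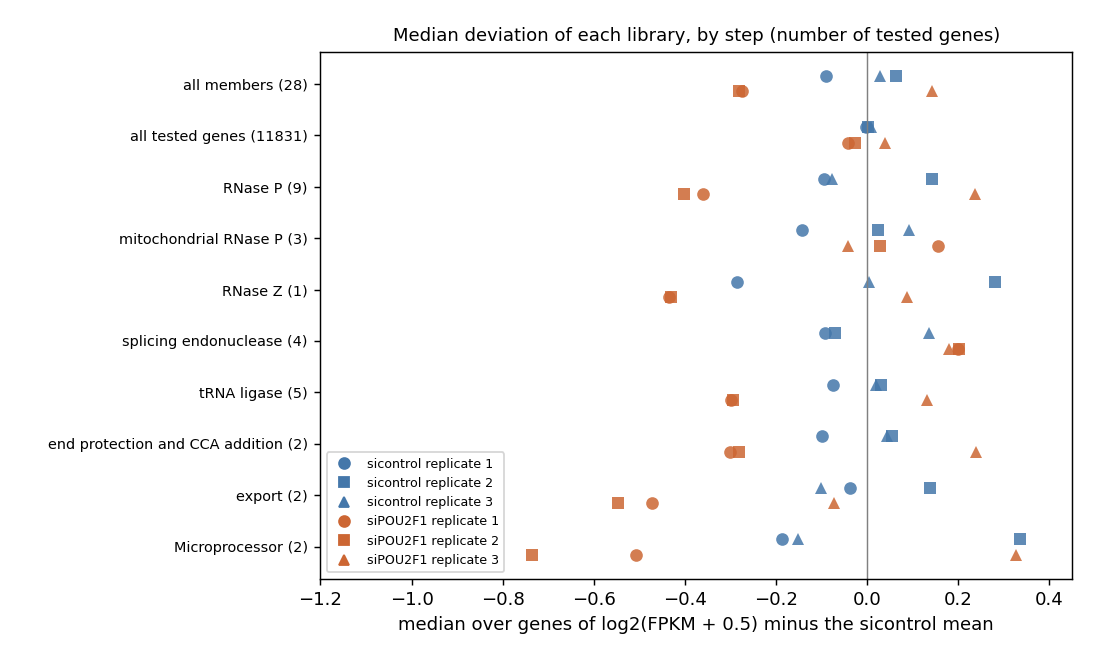
Median over the tested genes of each step of log2(FPKM + 0.5) minus the sicontrol mean, by library (blue, sicontrol; orange, siPOU2F1; shape, replicate), with all members and all tested genes at the top. For RNase P, RNase Z, the ligase and the end-protection genes, siPOU2F1 replicates 1 and 2 lie to the left of zero and replicate 3 to the right, whereas the splicing endonuclease has all 3 to the right.

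Without siPOU2F1 replicate 3, which leaves 2 libraries in that group, 6 of the 28 members were called lower and none higher (limma). In that fit 15.8% of all tested genes were called lower and 9.48% higher, 25.3% in either direction. The 6 were RPP30, RPP14, RPP38, TRMT10C, XPOT and DGCR8, and 15 members had an unadjusted p under 0.05 (42.5% of all tested genes). The median log2 fold change was -0.26 for the members and -0.03 for all tested genes. With library weights estimated from the data, which lowered the influence of libraries that deviate, 13 members were called lower and 4 higher (limma), where 28.0% and 22.4% of all tested genes were, 50.4% in either direction. The 4 called higher were PRORP, TSEN54, CLP1 and DROSHA. The 13 called lower were POP4, RPP14, RPP25, RPP30, RPP38, TRMT10C, DDX1, RTRAF, ZBTB8OS, SSB, XPOT, XPO5 and DGCR8. Leaving out any 1 library other than siPOU2F1 replicate 3 called no member. Those fits called few of all tested genes, at most 4 higher and 5 lower (without sicontrol replicate 3). The absence of called members there therefore says little about the members.

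**Figure D3:**
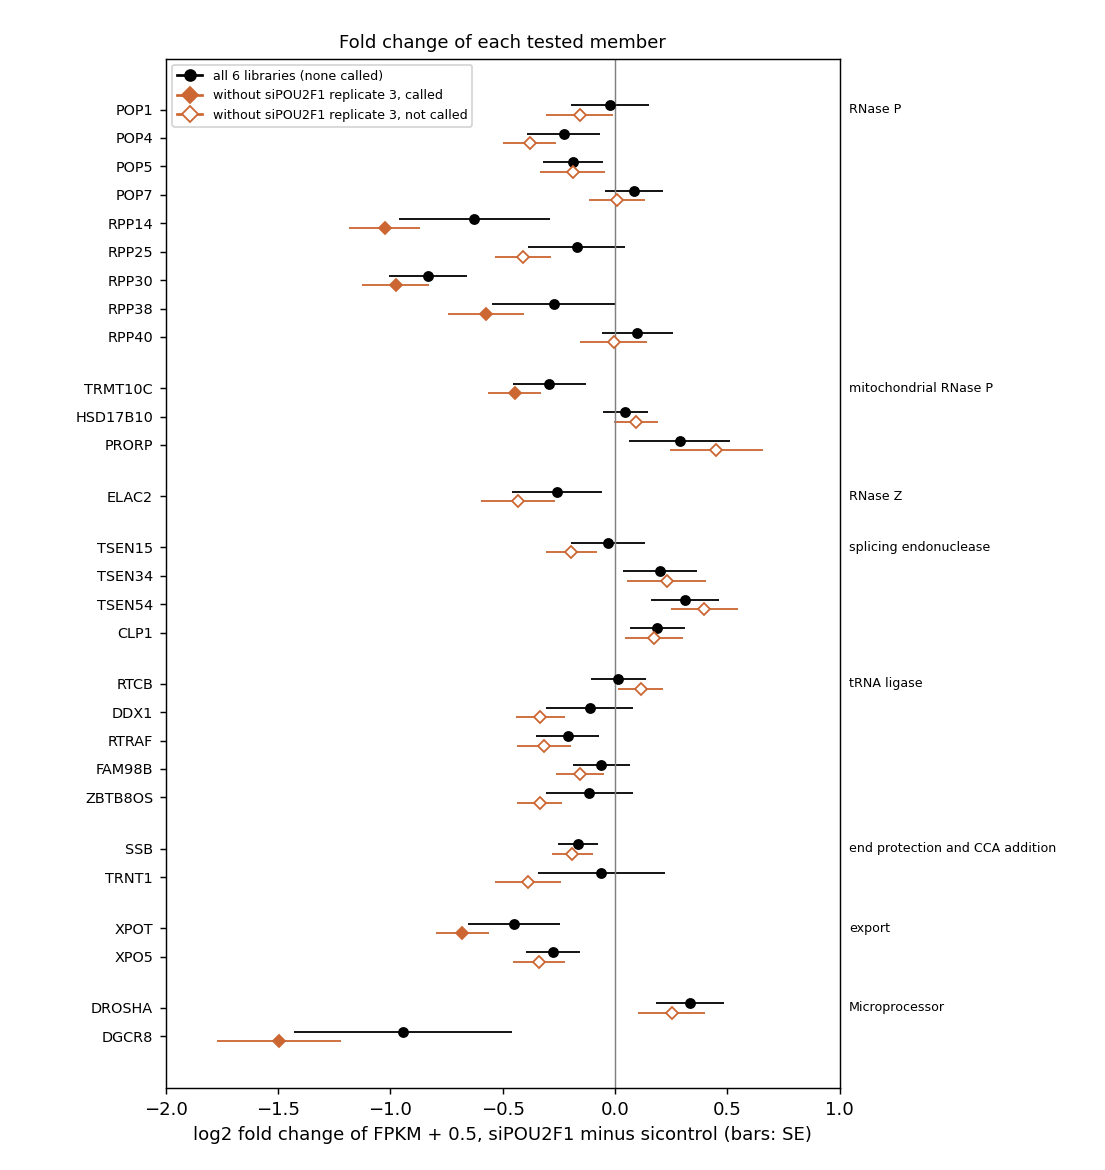
Log2 fold change (siPOU2F1 minus sicontrol, bars are SE) of the 28 tested members with all 6 libraries (black circles) and without siPOU2F1 replicate 3 (orange diamonds, filled where the adjusted p was under 0.05). Filled diamonds mark RPP14, RPP30, RPP38, TRMT10C, XPOT and DGCR8, all lower.

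The protein subunits of nuclear RNase P, most of which also serve RNase MRP in ribosomal RNA processing, included the member with the lowest p. RPP30 (ENSG00000148688; chromosome 10, 90871716 to 90908553, plus strand, GRCh38), which sits with POP5, RPP14 and RPP40 in one lobe of the enzyme, was 35.3, 32.2 and 29.6 FPKM in sicontrol and 14.0, 18.7 and 21.9 FPKM in siPOU2F1. Every siPOU2F1 library lay below every sicontrol library, and replicate 3 was the closest to the controls. The mean went from 32.4 ± 2.84 to 18.2 ± 3.99 FPKM (SD, n = 3 each), 56.2% of control, a log2 fold change of -0.83 ± 0.17 (SE) and a 95% interval from -1.25 to -0.42. It was not called over all genes (limma, unadjusted p = 0.00198, adjusted p = 0.0759). Without siPOU2F1 replicate 3 the log2 fold change was -0.98 (adjusted p = 0.00957), and without any 1 other library the adjusted p was at most 0.315.

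The promoter window of RPP30 is shown because this gene had the lowest p of the members and POU2F1 is an octamer-binding factor. It runs from 250 bases before the RefSeq start to 50 bases after it (RefSeq, GRCh38.p14, plus strand, chr10:90871724-90872023), with a CCAAT box, read on the opposite strand, in capitals. It held no octamer, ATGCAAAT.
RPP30: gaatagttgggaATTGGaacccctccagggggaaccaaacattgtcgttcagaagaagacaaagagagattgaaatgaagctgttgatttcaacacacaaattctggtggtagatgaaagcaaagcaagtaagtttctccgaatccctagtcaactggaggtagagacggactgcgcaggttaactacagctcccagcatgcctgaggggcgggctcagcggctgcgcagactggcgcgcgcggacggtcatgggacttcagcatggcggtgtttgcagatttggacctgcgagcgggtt

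RPP14, from the same lobe, was 8.14, 9.73 and 7.43 FPKM in sicontrol and 3.49, 4.27 and 9.52 FPKM in siPOU2F1. Replicates 1 and 2 of siPOU2F1 were below every control, and replicate 3 was inside the control range. The log2 fold change was -0.63 ± 0.34 (SE; limma, adjusted p = 0.353) and -1.03 ± 0.16 (SE) without siPOU2F1 replicate 3 (adjusted p = 0.00993). RPP14 shares 20.7% of its exonic bases with HTD2, a mitochondrial fatty acid synthesis gene encoded on the same transcript. HTD2 was 7.12, 9.49 and 6.03 FPKM in sicontrol and 3.70, 4.46 and 5.44 FPKM in siPOU2F1, so the reads of the pair cannot be assigned with certainty. RPP40, also of this lobe, had a log2 fold change of 0.10 and POP5 of -0.19, and neither was called (limma, adjusted p = 0.744 and 0.47). They stood at -0.01 and -0.19 without siPOU2F1 replicate 3.

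The other lobe holds POP4, RPP21 and RPP38. RPP38, which binds kinked RNA, was 16.2, 20.3 and 13.5 FPKM in sicontrol and 10.9, 10.8 and 20.8 FPKM in siPOU2F1. Replicate 3 was the highest of all 6 libraries, while replicates 1 and 2 were the lowest, and the log2 fold change was -0.27 ± 0.28 (SE; limma, adjusted p = 0.597). Without replicate 3 it was -0.57 (adjusted p = 0.0493). POP4, which also had replicates 1 and 2 below every control, stood at -0.23 with all libraries and -0.38 without replicate 3, called in neither (limma, adjusted p = 0.463 and 0.0569). RPP21 was between 0.175 and 0.313 FPKM in sicontrol and was 0.385, 1.20 and 0.311 FPKM in siPOU2F1, below the level tested. It shares 69.2% of its exonic bases with the read-through gene TRIM39-RPP21, listed at 0 in all 6 libraries.

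POP7 and RPP25 form a pair that grips the RNA subunit, and POP1 is the large scaffold protein. Their levels were far apart per length, at 37.6 ± 4.29 FPKM for POP7, 6.10 ± 0.425 FPKM for RPP25 and 2.63 ± 0.234 FPKM for POP1 in sicontrol (SD, n = 3). In siPOU2F1 they were at 39.8 ± 4.25, 5.53 ± 1.84 and 2.60 ± 0.523 FPKM (SD, n = 3). None was called (limma, adjusted p = 0.736, 0.675 and 0.947), and the 95% intervals of the log2 fold changes were -0.23 to 0.39 for POP7, -0.68 to 0.34 for RPP25 and -0.44 to 0.39 for POP1. RPP25 moved from -0.17 with all libraries to -0.41 without siPOU2F1 replicate 3 (limma, adjusted p = 0.0527). With library weights RPP25 was called lower (limma, adjusted p = 0.028), as were 13 members in all and 28.0% of all tested genes. POP7 and POP1 stood at 0.01 and -0.16 without siPOU2F1 replicate 3. Over the 9 tested subunits the median log2 fold change was -0.19, and 7 were below 0. The RNA subunits RPPH1 and RMRP are not analysed here.

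Mitochondrial RNase P is built from TRMT10C, a tRNA methyltransferase, HSD17B10, a dehydrogenase that supports it, and PRORP, the nuclease. TRMT10C was 12.7, 14.8 and 14.9 FPKM in sicontrol and 9.82, 10.6 and 14.2 FPKM in siPOU2F1. Replicates 1 and 2 lay below all controls and replicate 3 among them, with a log2 fold change of -0.29 ± 0.16 (SE; limma, adjusted p = 0.363; -0.45 and 0.0365 without siPOU2F1 replicate 3). HSD17B10 was 80.0, 78.5 and 87.3 FPKM in sicontrol and 91.2, 83.6 and 79.2 FPKM in siPOU2F1. Its groups overlapped, and the log2 fold change was 0.05 with a 95% interval from -0.19 to 0.28 (limma, adjusted p = 0.811). PRORP was 8.65, 11.1 and 13.6 FPKM in sicontrol and 17.3, 13.2 and 10.6 FPKM in siPOU2F1, again overlapping, at 0.29 ± 0.22 (SE; limma, adjusted p = 0.498). PRORP without siPOU2F1 replicate 3 stood at 0.45 (limma, adjusted p = 0.141) and HSD17B10 at 0.09 (0.491). With library weights PRORP was called higher, at 0.56 (limma, adjusted p = 0.0211), and TRMT10C lower, at -0.33 (0.0188). That fit called 4 members and 22.4% of all tested genes higher, and 13 members and 28.0% lower. The annotation gives PRORP 44.3% of its exonic bases in common with AL121594.1 on the same strand. AL121594.1 was 5.46, 1.81 and 2.50 FPKM in sicontrol and 0, 3.15 and 6.25 FPKM in siPOU2F1. PRORP was highest where AL121594.1 was 0, and lowest, at 8.65 and 10.6 FPKM, where AL121594.1 was 5.46 and 6.25 FPKM. The values and fold changes of PRORP are therefore uncertain. The nuclease and the methyltransferase thus had fold changes of opposite sign, although neither was called with all libraries at equal weight.

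RNase Z comes in a short cytosolic form, ELAC1, and a long form, ELAC2, found in nucleus and mitochondria. ELAC2 was 27.1, 40.4 and 33.3 FPKM in sicontrol and 24.4, 24.5 and 35.3 FPKM in siPOU2F1. Replicates 1 and 2 were below every control and replicate 3 was within the control range, with a log2 fold change of -0.26 ± 0.20 (SE; limma, adjusted p = 0.493). Without replicate 3 it was -0.43 (adjusted p = 0.0933). ELAC1 was 0.663, 0.941 and 0.869 FPKM in sicontrol and 0.294, 0.299 and 1.61 FPKM in siPOU2F1, a level too low to be tested. Replicates 1 and 2 were again below every control, while replicate 3 was above every control. The long form therefore made up most of the RNase Z mRNA in every library.

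The splicing endonuclease is represented by TSEN34, a catalytic subunit, by the structural subunits TSEN15 and TSEN54, and by the RNA kinase CLP1 attached to it. Of these 4 members, 3 had positive fold changes. TSEN54 was 12.6, 13.9 and 17.4 FPKM in sicontrol and 19.5, 18.9 and 16.1 FPKM in siPOU2F1. Replicates 1 and 2 were above all controls and replicate 3 was not, and the log2 fold change was 0.31 ± 0.15 (SE; limma, adjusted p = 0.323; 0.40 and 0.0894 without replicate 3). CLP1 was 9.75, 11.2 and 12.3 FPKM in sicontrol and 12.9, 12.1 and 12.9 FPKM in siPOU2F1, so that 1 siPOU2F1 library fell inside the control range, at 0.19 (limma, adjusted p = 0.428). TSEN34, at 2.89 ± 0.524 and 3.37 ± 0.192 FPKM (SD, n = 3 each), had 0.20, and TSEN15, the most abundant of the 4 at 38.0 ± 2.47 and 37.7 ± 8.28 FPKM, had -0.03. The medians of the 4 genes were 0.20, 0.20 and 0.18 in siPOU2F1 replicates 1 to 3 relative to sicontrol. None was called with all libraries at equal weight. With library weights TSEN54 (0.50) and CLP1 (0.26) were called higher (limma, adjusted p = 0.00516 and 0.0424), as were 22.4% of all tested genes. With siPOU2F1 replicate 3 left out, CLP1 stood at 0.17, TSEN34 at 0.23 and TSEN15 at -0.20 (limma, adjusted p = 0.339, 0.346 and 0.228).

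The tRNA ligase complex joins exon ends through RTCB, helped by the helicase DDX1, by RTRAF and FAM98B, and by ZBTB8OS (archease), which reactivates RTCB after each round. The mean level of RTCB was 43.8 ± 1.41 FPKM with the control siRNA and 44.5 ± 5.98 FPKM with siPOU2F1 (SD, n = 3 each). Its log2 fold change was 0.01 with a 95% interval from -0.27 to 0.30 (limma, adjusted p = 0.952; 0.11 and 0.409 without siPOU2F1 replicate 3). Its partners had replicates 1 and 2 of siPOU2F1 below every control and replicate 3 above the lowest control, and for DDX1, FAM98B and ZBTB8OS above the highest. DDX1 was 67.5, 80.7 and 70.1 FPKM in sicontrol and 58.9, 56.1 and 91.0 FPKM in siPOU2F1, at -0.11 with all libraries and -0.33 without replicate 3 (limma, adjusted p = 0.76 and 0.0622). The same pair of fold changes was -0.12 and -0.34 for ZBTB8OS, -0.21 and -0.32 for RTRAF and -0.06 and -0.16 for FAM98B. None of the 5 was called in either fit.

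SSB, the La protein that shields the 3′ ends of new tRNA precursors, was the most abundant member. It was 148, 136 and 150 FPKM in sicontrol and 129, 123 and 133 FPKM in siPOU2F1. The groups did not overlap, though the gap between them was small, and the log2 fold change was -0.17 ± 0.09 (SE; limma, adjusted p = 0.357). SSB shares 19.0% of its exonic bases with METTL5 on the opposite strand, which was 67.2 to 72.6 FPKM in sicontrol and 55.3 to 64.0 FPKM in siPOU2F1. The strand setting of the quantification is not given in the sources used here, so reads of this pair cannot be told apart with certainty. TRNT1, which adds CCA, was 13.1, 17.7 and 15.8 FPKM in sicontrol and 11.2, 12.1 and 23.5 FPKM in siPOU2F1. It had both its lowest and its highest value in siPOU2F1 libraries, and its log2 fold change was -0.06 ± 0.28 (SE; limma, adjusted p = 0.918). TRNT1 without siPOU2F1 replicate 3 stood at -0.39 ± 0.15 (SE; limma, adjusted p = 0.0899) and SSB at -0.19 (0.155).

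Of the exportins, XPOT carries mature tRNA out of the nucleus with Ran-GTP, and XPO5 carries microRNA precursors and some structured RNAs. XPOT (ENSG00000184575; chromosome 12, 64404350 to 64451127, plus strand, GRCh38) was 78.1, 86.4 and 68.7 FPKM in sicontrol and 47.6, 48.6 and 77.6 FPKM in siPOU2F1. Replicates 1 and 2 were well below the controls, and replicate 3 was within them. The log2 fold change was -0.45 ± 0.20 (SE; limma, adjusted p = 0.299), and -0.68 ± 0.12 (SE) without replicate 3 (adjusted p = 0.0125). XPO5 was 17.5, 20.2 and 18.2 FPKM in sicontrol and 15.6, 13.7 and 16.7 FPKM in siPOU2F1. All siPOU2F1 libraries lay below all controls by a small margin, at -0.28 ± 0.12 (SE; limma, adjusted p = 0.288). Without replicate 3 XPO5 stood at -0.34 and was still not called (adjusted p = 0.0711). XPO5 overlaps POLR1C on the opposite strand by 1.86% of its exonic bases.

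The XPOT promoter window is shown as that of the tRNA exportin, and a pair of CCGGAAG words, the core of sites for ETS factors, stands in capitals in it, the left copy on the opposite strand (RefSeq, GRCh38.p14, plus strand, chr12:64404142-64404441). It too held no octamer.
XPOT: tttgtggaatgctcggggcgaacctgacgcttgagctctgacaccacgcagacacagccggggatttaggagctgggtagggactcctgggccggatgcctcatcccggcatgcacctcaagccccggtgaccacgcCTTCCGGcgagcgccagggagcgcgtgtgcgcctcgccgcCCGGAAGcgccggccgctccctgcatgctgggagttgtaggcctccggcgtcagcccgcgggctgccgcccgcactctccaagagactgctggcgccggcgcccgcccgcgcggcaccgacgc

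The Microprocessor, which cuts primary microRNA transcripts and is not a tRNA maturation enzyme, had its subunits apart. DROSHA, the nuclease, was 5.75, 7.41 and 7.23 FPKM in sicontrol and 8.66, 7.65 and 9.72 FPKM in siPOU2F1. The groups did not overlap, replicate 3 was the highest, and the log2 fold change was 0.33 ± 0.15 (SE; limma, adjusted p = 0.301; 0.25 and 0.233 without replicate 3). DGCR8, its RNA-binding partner (ENSG00000128191; chromosome 22, 20080232 to 20111877, plus strand, GRCh38), was 7.79, 13.0 and 6.53 FPKM in sicontrol and 3.11, 2.46 and 9.82 FPKM in siPOU2F1. It had the largest SE of the 28 tested members. Its values were high in sicontrol replicate 2 and siPOU2F1 replicate 3, and the log2 fold change was -0.94 ± 0.48 (SE), 95% interval -2.09 to 0.20 (limma, adjusted p = 0.341). Without replicate 3 it was -1.50 ± 0.28 (SE) (adjusted p = 0.0146).

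DGCR8 exons hold the genes of MIR3618 and MIR1306, hairpins that the Microprocessor is known to cut within the DGCR8 transcript. Their mature sequences are shown because they mark that cut in the member that varied most (RefSeq, GRCh38.p14, chromosome 22, plus strand, seed bases 2 to 8 in capitals). No 2 of them share a seed, and polyA libraries do not measure them.
hsa-miR-3618: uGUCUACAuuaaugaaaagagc
hsa-miR-1306-5p: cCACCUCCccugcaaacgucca
hsa-miR-1306-3p: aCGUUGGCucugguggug

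The DROSHA promoter window holds 3 CCAAT boxes, in capitals, the first and second on the opposite strand, and no octamer (RefSeq, GRCh38.p14, minus strand, chr5:31532044-31532343). It is shown as that of the only member higher in every siPOU2F1 library.
DROSHA: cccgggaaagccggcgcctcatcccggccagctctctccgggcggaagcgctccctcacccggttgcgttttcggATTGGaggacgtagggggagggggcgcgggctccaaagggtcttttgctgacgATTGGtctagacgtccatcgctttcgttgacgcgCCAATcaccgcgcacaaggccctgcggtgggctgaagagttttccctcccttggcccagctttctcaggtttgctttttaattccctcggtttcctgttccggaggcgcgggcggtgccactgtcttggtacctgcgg

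The promoters of 27 of the 30 members could be searched in this way, on both strands and over all listed starts of a gene. The octamer ATGCAAAT was in none of the 27, against 1.8% of the 9578 tested genes with a RefSeq promoter and 2.19% of all 27305 genes in the table. Its first 7 letters, ATGCAAA, which every octamer contains, were also in none (3.98% of tested genes). The ETS word CCGGAAG was in 8 members (29.6%, against 23.4% of tested genes), the NRF1 motif in 6 (22.2%, against 13.7%) and CCAAT in 12 (44.4%, against 43.0%). The YY1 word AANATGGCG was in none of the 27 (8.43% of tested genes). These words were matched exactly, and a match or its absence in this window says nothing of whether a factor binds.

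The 3′ UTRs of the members were also searched for AACTGCA and AGAATGA, words that an earlier search of these same libraries had linked to lower expression in siPOU2F1. That choice used the fold changes of all genes, so the counts here describe the members and test nothing. All basic coding transcripts of a gene were read on the sense strand. AACTGCA was present in 1 of the 28 tested members (3.57%, against 15.7% of 11702 tested genes) and AGAATGA in 3 (10.7%, against 19.1%), and either word in 4 (14.3%, against 29.3%). RPP30, DGCR8, RPP38 and TRMT10C held neither. RPP14 held AGAATGA at 2 places, XPOT and PRORP at 1 each, and TSEN15 held AACTGCA once. The sites are shown with 10 bases on either side and the word in capitals, in GRCh38 on the plus strand. The words stand at chr3:58323573-58323579 and chr3:58324608-58324614 in RPP14, chr12:64451064-64451070 in XPOT, chr14:35276322-35276328 in PRORP and chr1:184097058-184097064 in TSEN15.
RPP14 first site: actgctcaaaAGAATGActcttaatga
RPP14 second site: aaaggaaataAGAATGActgtgagttg
XPOT: atgtgttgttAGAATGAttccatcact
PRORP: gagggaggtaAGAATGAgaagaaggaa
TSEN15: gcctctcagcAACTGCAgttctttgtg

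Beyond the 30 genes, 30 others that act beside them were read as lists. Of these, 1 was called lower and none higher with all libraries (limma), where 0.845% and 0.397% of all tested genes were. The median log2 fold change of the 30 was -0.12, beside -0.01 for all tested genes. Without siPOU2F1 replicate 3, 8 of the 30 were called lower and none higher (limma), where 15.8% and 9.48% of all tested genes were, and the median was -0.21. With all libraries the called gene was DICER1, which cuts the hairpins that the Microprocessor releases. DICER1 was 13.7, 14.4 and 13.9 FPKM in sicontrol and 7.78, 6.96 and 6.88 FPKM in siPOU2F1. In contrast to most members its replicate 3 was as low as the others, and the log2 fold change was -0.92 ± 0.11 (SE; limma, adjusted p = 0.0223). Without siPOU2F1 replicate 3 the call held (adjusted p = 0.00642), and leaving out any 1 other library ended it (adjusted p up to 0.169). SRRT, which links capped transcripts to the Microprocessor, had -0.39 (limma, adjusted p = 0.326; -0.51 and 0.0829 without siPOU2F1 replicate 3).

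Among 11 other end-processing and splicing genes, none was called with all libraries (limma, 1.24% of all tested genes were). THG1L, which adds the extra guanosine of histidine tRNA, had -0.52 (limma, adjusted p = 0.117; -0.62 and 0.0121 without siPOU2F1 replicate 3), and TRPT1, a 2′-phosphotransferase of tRNA, had -0.24 (adjusted p = 0.258; -0.26 and 0.0954 without it). Of 8 genes of the Ran cycle and other export factors none was called with all libraries either. XPO1, the main protein exportin, had -0.32 and RANGAP1, which triggers GTP hydrolysis by Ran, -0.34 (limma, adjusted p = 0.19 for both). Both were called lower without siPOU2F1 replicate 3, at -0.40 and -0.42 (limma, adjusted p = 0.0259 and 0.0251). Of 7 genes of tRNA surveillance none was called, and the lowest p were those of ZCCHC7, an RNA-binding subunit of the TRAMP-like complex (0.28, limma, adjusted p = 0.305), and TENT4B, its poly(A) polymerase (-0.31, adjusted p = 0.349). On leaving out siPOU2F1 replicate 3 these stood at 0.37 and -0.23 (limma, adjusted p = 0.0645 and 0.3).

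**Figure D4:**
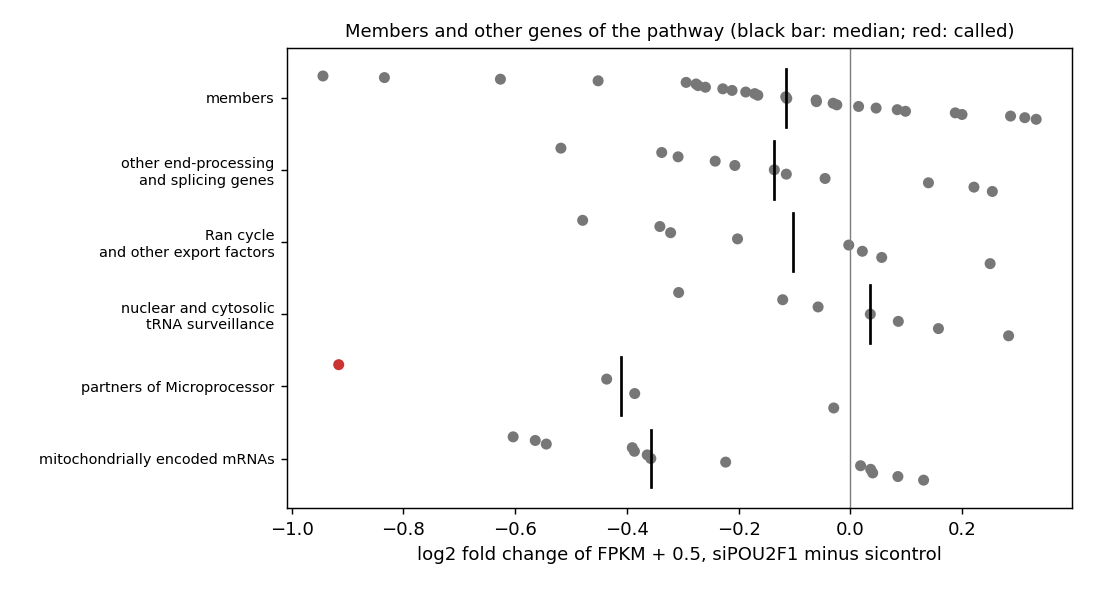
Log2 fold change (siPOU2F1 minus sicontrol) of the 28 tested members and of the other lists, 1 point per gene, with black bars at the medians. The 1 red point, DICER1, is the only gene of these lists with an adjusted p under 0.05, and the medians run from -0.41 for the 4 partners of the Microprocessor to 0.04 for tRNA surveillance.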

How the data were processed

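For each library the authors deposited a table in FPKM, made from 2 µg of total RNA with a directional polyA kit, per the labels' protocols. StringTie 2.1.2, HISAT2 2.0.4, Bowtie2 2.2.5 and hg38 are listed in the submitters' processing notes, without the step of each. The annotation release, strand setting and filters were not given in the sources used here. Of 22782 features, 2308 assembled transcripts were left out. Values entered unscaled as log2(FPKM + 0.5) into limma 3.58.1 (R 4.3.3) with a mean-variance trend and group as the only term, over the 11831 genes averaging 1 FPKM or more. The fit was tested on simulated data with independent noise in each gene and library. That simulation held no deviation shared across genes, such as that of siPOU2F1 replicate 3. Fold changes on this scale understate low genes. Positions, overlaps and 3′ UTRs (at least 20 bases) came from GENCODE release 29, promoters and microRNAs from RefSeq.

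Members and lists were chosen with earlier results of these data known. All 30 members are accounted for. Values of every library are given for the 3 members of lowest p in each direction, for members whose groups do not overlap and for steps of 3 or fewer members. From each other list come called genes and the 2 of lowest p. RPP14, RPP38 and DDX1 were added to these after their values were seen, as were HTD2, METTL5, POLR1C, AL121594.1, MT-CO1, MT-CO3, MT-CYB, MT-ND1 and MT-ND4. The other software was scipy 1.17.1, matplotlib 3.10.9, pandas 2.3.3 and numpy 2.4.6 under Python 3.11.15.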

Additional observations from a re-analysis of the deposited data

How the results depend on the processing

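POU2F1 kept its direction, but not always its call, under all 14 alternatives in which it was tested. Its log2 fold change was -0.99 with no filter on low values (adjusted p = 0.065) and -0.99 with a replicate block (0.297), and leaving out 1 library gave -1.06 to -0.95 (0.00946 to 0.222). The number of members called lower was 0 to 6 on leaving out 1 library, 6 being without siPOU2F1 replicate 3, and 13 with library weights, which also called 4 higher. No member was called under pseudocounts of 0.1 and 1, no filter, a minimum mean of 5 FPKM (26 members), quantile normalization, median-ratio scaling, no mean-variance trend or a replicate block. Among all genes, 23 were higher and 70 lower without the trend and 0 and 0 with the block (1208 at an unadjusted p under 0.05), against 47 and 100; quantile normalization gave 46 and 101 and median-ratio scaling 45 and 106. Without a filter 24 and 48 of 17365 were called, and none was when sicontrol replicate 1 or either of siPOU2F1 replicates 1 and 2 was left out (1331, 1261 and 1179 at an unadjusted p under 0.05). Without sicontrol replicate 2 the counts were 1 and 4, without sicontrol replicate 3 they were 4 and 5, without siPOU2F1 replicate 3 they were 1120 and 1870, and library weights gave 2651 and 3312.

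Same-numbered libraries did not deviate together (correlations of deviations 0.133, -0.545 and -0.512, against 0.643 for sicontrol replicate 2 with siPOU2F1 replicate 3). Deviations among so few libraries cannot decide whether a shared number marks a pair, and the labels do not say. With the block DICER1 also lost its call (limma, adjusted p = 0.297). POP1 changed sign to 0.0017 under quantile normalization. On leaving out 1 library some members near zero changed sign, the ranges being -0.16 to 0.065 for POP1, -0.013 to 0.16 for POP7, -0.080 to 0.11 for RTCB, -0.39 to 0.13 for TRNT1, -0.20 to 0.11 for TSEN15, -0.0084 to 0.092 for HSD17B10, -0.34 to 0.016 for ZBTB8OS, -0.33 to 0.013 for DDX1 and -0.0068 to 0.21 for RPP40. The cause was not tested. The alternatives for the genes of the other lists were added after the data were seen.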

Other observations

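Mitochondrial RNase P and ELAC2 free the mitochondrial mRNAs from long precursors by cutting out the tRNAs between them. None of the 13 mitochondrially encoded mRNAs was called with all libraries (limma, 1.24% of all tested genes were). An unadjusted p under 0.05 was reached by 0 of them (18.1% of all tested genes). The log2 fold change was below 0 in 8 (51.5% of all tested genes), and the median was -0.36, beside -0.01 for all tested genes. The 13 mRNAs did not vary together. MT-CO3, a subunit of cytochrome oxidase, was 1306, 2034 and 2012 FPKM in sicontrol and 905, 806 and 2089 FPKM in siPOU2F1, while MT-CO1 of the same enzyme was 5799, 6243 and 6394 against 5951, 5921 and 6826 FPKM. MT-CYB was 1322, 1830 and 1595 against 814, 818 and 1869 FPKM, and MT-ND4 was 4446, 4350 and 5269 against 5594, 5256 and 4552 FPKM. In MT-CO3, MT-CYB and MT-ND1 siPOU2F1 replicates 1 and 2 were below every control and replicate 3 was above every control. Among the tested members DDX1, FAM98B, RPP25, RPP38, TRNT1 and ZBTB8OS had that order too. The share of that full order over all tested genes was not counted. Its parts were common, as replicates 1 and 2 lay below every control in 35.0% of all tested genes. Replicate 3 was the highest of all 6 libraries in 23.6%. Whether the members and these mRNAs are linked was not tested. Without siPOU2F1 replicate 3, 5 of the 13 were called lower (limma, 15.8% of all tested genes were). These were MT-CYB (-0.94, adjusted p = 0.00986), MT-CO3 (-1.03, 0.0172), MT-CO2 (-0.59, 0.0222), MT-ND3 (-0.87, 0.0308) and MT-ND1 (-0.81, 0.0407). With all libraries MT-ND3 and MT-CO2 had the lowest p, at -0.56 and -0.36 (limma, adjusted p = 0.353 and 0.377). How polyA selection samples mitochondrial mRNAs in these libraries was not tested.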
